A study of Mus musculus with 24 samples.

Results

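The genes described here make nucleotides and the one-carbon units that nucleotide synthesis consumes. They are 38 enzymes and carriers, listed by gene symbol for their known roles. No cut on measured values entered the list, but it was drawn up with earlier results of these data known. A probe set that the platform table assigns to a single gene was found for 37 of them, among 19938 genes named that way, and Impdh2 was not analysed here. Where a gene had several such probe sets, the one with the highest mean signal stood for it. All 37 passed the filter on dim signals, and none lay at or below the dim level, the 30th percentile of an array, on any array.

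Messenger RNA was measured on 24 1-colour mouse gene arrays, 1 array per mouse, after irradiation of all mice with 2 Gy. Preleukemic RNA came from marrow cells at the pro-B or pre-B stage, taken 3 weeks after irradiation from 3 wild-type (WT) mice and from 7 mice heterozygous for Pax5 (Pax5+/-). The leukemic groups came from the bone marrow of 4 WT and 10 Pax5+/- mice. Their labels name B cells, whereas the design text speaks of marrow that bears tumors, so whether B cells were purified from it is not known here. Pax5 is a transcription factor needed to become and remain a B cell, and the study asked how losing part of its activity bears on radiation-induced B-cell leukemia. Leukemic samples carry the same 3-week label, so the time at which those mice were sampled is not known here, and no age, sex or strain is given in the labels. Preleukemic and leukemic groups are thus labelled as different cell material, and material and disease cannot be told apart. In RNA from bulk cells, fewer cells of a type and less RNA per cell cannot be told apart either.

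Pyrimidine nucleotides are assembled as a free base that is then joined to ribose phosphate, whereas the purine ring is built on ribose phosphate itself in a longer series of steps. Purine synthesis and the methylation that turns deoxyuridylate into thymidylate both consume one-carbon units carried on folate, and most of these units come from serine. Ribonucleotide reductase then makes the deoxynucleotides for DNA, while salvage enzymes recycle free bases and nucleosides. Dividing lymphoid cells draw heavily on these routes, and several drugs used against lymphoblastic leukemia, methotrexate and mercaptopurine among them, act on them.

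Some features of the arrays bear on every comparison below. Array 1 of the preleukemic WT group stood apart from the other 2, with a mean log2 signal of 13 mitosis genes of 10.24 against 8.18 and 8.35, and a granulocyte mean of 10.78 against 6.72 and 6.79. The counts of genes called, and the differences it moved most, are therefore also given without it. Mitosis genes moved with stage in Pax5+/- mice, from 8.51 to 9.12 on preleukemic and 9.51 to 10.49 on leukemic arrays, and all 13 rose, as did 12 of 13 in WT. Granulocyte genes rose in 11 of 12 cases in Pax5+/-. In WT 0 of 12 did with array 1 and 10 of 12 without it, so the WT count rests on that array. Monocyte genes rose in 8 of 8 cases in Pax5+/- and 6 of 8 in WT (7 of 8 without array 1), and platelet genes in 4 of 4 in each genotype. Without array 1 all 13 mitosis genes rose in WT, and the counts of early B-cell and platelet genes were as with it. Genes of early B cells fell in 7 of 9 cases in each genotype, and none of the 9 was dim throughout a group. Their mean signal was 11.43 to 11.84 on preleukemic arrays of either genotype, 8.08 to 10.12 on leukemic WT arrays and 9.13 to 10.89 on leukemic Pax5+/- arrays. The part of these markers in the results was not tested. All 3 preleukemic WT arrays had high and all 4 leukemic WT arrays low Y-linked signal, so that sex and stage cannot be told apart in WT. Both Pax5+/- groups were mixed, with high signal on 4 of 7 preleukemic and 5 of 10 leukemic arrays. Genotype comparisons within a stage, and of the stage differences, therefore also carry a difference in Y-linked signal.

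Most nucleotide and one-carbon genes rose from the preleukemic to the leukemic stage, whichever the genotype. Of the 37 in Pax5+/- mice, 32 (86.5%) rose, against 27.8% of all 15647 genes tested. In WT mice 30 of 37 (81.1%) rose, against 18.7% of all genes. A gene is said to have risen or fallen when limma's moderated test gave a Benjamini-Hochberg adjusted p under 0.05 over all genes tested. The median log2 difference, leukemic minus preleukemic, was 1.03 over the 37 genes in Pax5+/- and 1.13 in WT, whereas the median over all genes was -0.05 in both. At least 2-fold rises were found for 19 of 37 genes (51.4%) in Pax5+/- and 23 of 37 (62.2%) in WT, against 6.73% and 5.64% of all genes.

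The same 30 genes rose in both genotypes, where 16.9% of all genes tested rose in both. Dck, a salvage kinase, was the only one of the 37 to fall in either genotype, and it fell in both, as did 17.9% of all genes. The fall of 1 gene compares with 35.1% of all genes falling in Pax5+/- and 20.4% in WT. Dhodh and Impdh1 rose in Pax5+/- and missed the threshold in WT, and Rrm2, Prps2, Adss and Mthfd2 missed it in both. Every leukemic array lay above every preleukemic array for 23 of 37 genes in Pax5+/- and 31 of 37 in WT, against 11.7% and 18.9% of all genes. The reverse order held for Dck alone in both genotypes, against 10.5% and 20.4% of all genes. Without WT preleukemic array 1, 31 genes rose in WT, 26 of them at least 2-fold, and 1 fell, while 19.1% of all genes rose. The median WT difference of the 37 genes was then 1.34, and single WT folds stood at 0.95 to 1.47 times their value with the array. Centring each array on the median of the genes tested, which shifted the median of all genes by -0.20 in Pax5+/- and -0.12 in WT, left 29 rises in each genotype. Under that centring 2 genes rather than 1 fell in Pax5+/-, Rrm2 being the second.

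**Figure D1:**
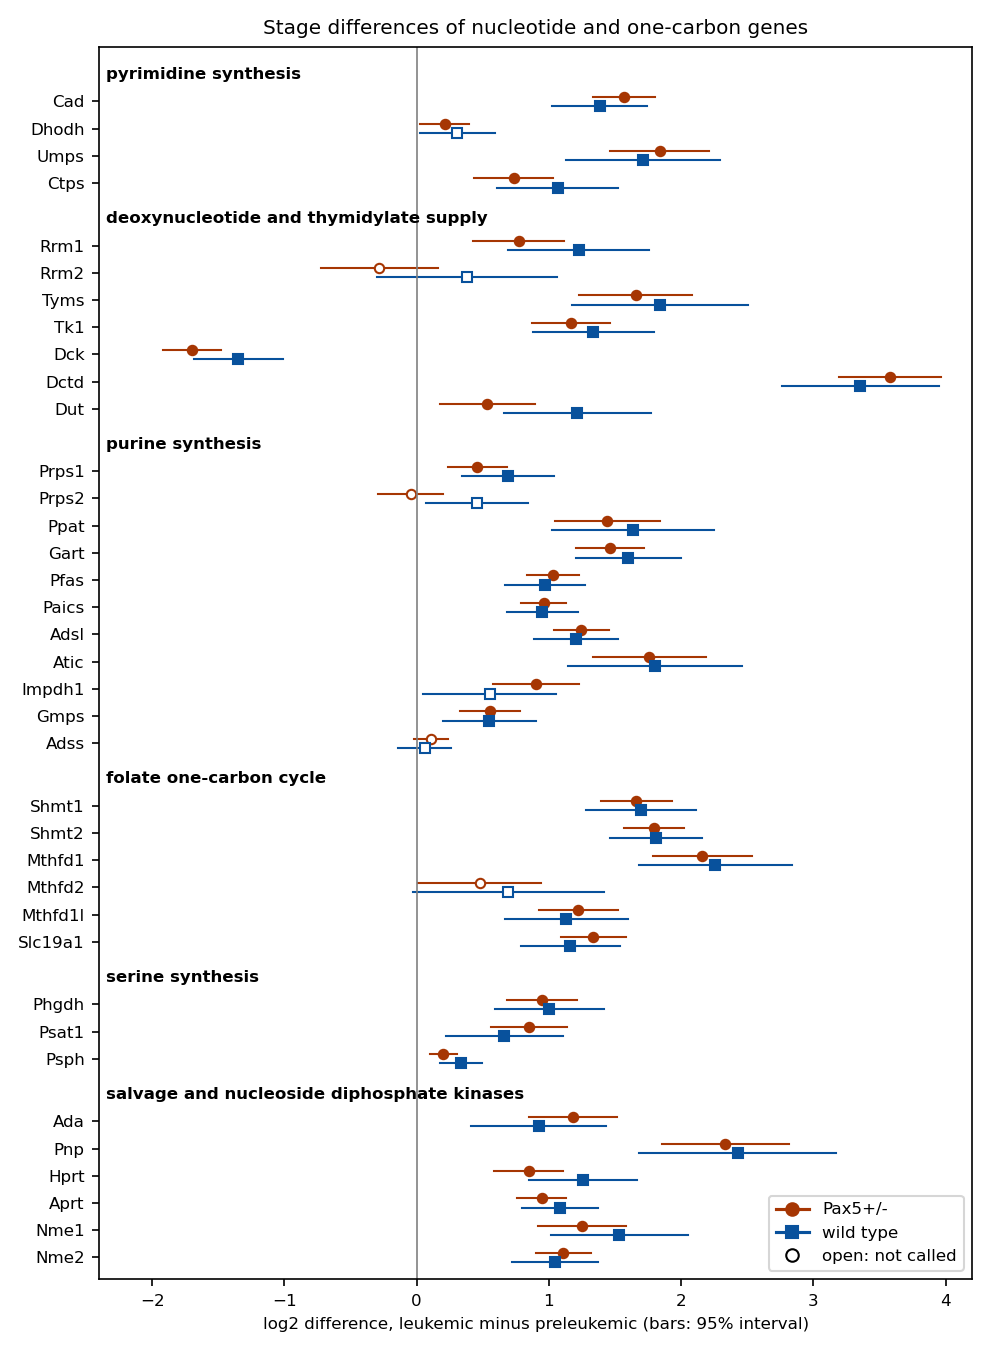
Log2 difference, leukemic minus preleukemic, of 37 genes grouped by role, with 95% confidence intervals from limma, for Pax5+/- (circles) and WT (squares). Filled points passed an adjusted p of 0.05 and open points did not. Most points lie to the right of 0, Dctd lies farthest right at 3.58 and 3.35, and Dck is the only filled point to the left of 0.

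The promoters of these genes were searched for letter patterns read by factors known to act on growth and replication genes. The windows were RefSeq sequences of GRCm38.p6, from 250 bases before to 50 after each start site, and were found for 35 of the 37 genes. The E-box CACGTG, the letters that Myc and its relatives bind, was found for 4 of 35 genes (11.4%), against 10.7% of the tested genes that have a window. A gene counts where any of its windows holds the letters, and 7 of the 35 genes have more than 1 window. The E2F spellings TTTCCCGC, TTTCGCGC, TTTGCCGC and TTTGGCGC, on either strand, were found for 2 of 35 (5.71%), against 4.03%. The ATF4-type TGATGNAA, on either strand, was found for 1 of 35 (2.86%), against 2.9%. These shares describe letters in a window and not bound sites. Stretches of 80 bases are shown for the 4 genes with an E-box, and for Ppat, whose window holds the E2F letters on 2 occasions. The 4 genes with an E-box rose in both genotypes, as did 30 of all 37 genes. Prps2, the other gene with E2F letters, passed in neither genotype, and its stretch is not shown. Nor is that of Prps1, which has the ATF4-type letters and rose in both. Nme1 has 2 windows, with an E-box in each, at -29 and -18 bases from their own start sites, and the first of these is shown. The stretches are written 5′ to 3′ on the gene's strand, with the matched letters in capitals. The Atic stretch is chr1:71557076-71557155 on the plus strand, that of Nme1 chr11:93968026-93968105 on the minus strand, and that of Paics chr5:76951069-76951148 on the plus strand. That of Tyms is chr5:30073637-30073716 and that of Ppat chr5:76951719-76951798, both on the minus strand. Paics and Ppat are neighbours on chromosome 5 that are read in opposite directions, from start sites at 76951302 and 76951578.
Atic: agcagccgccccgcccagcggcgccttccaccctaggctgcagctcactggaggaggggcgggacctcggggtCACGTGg
Nme1: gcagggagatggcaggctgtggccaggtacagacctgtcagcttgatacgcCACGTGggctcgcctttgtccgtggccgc
Paics: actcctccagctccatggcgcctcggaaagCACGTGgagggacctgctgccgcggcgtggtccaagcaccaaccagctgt
Tyms: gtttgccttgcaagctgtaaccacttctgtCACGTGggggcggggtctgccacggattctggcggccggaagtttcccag
Ppat: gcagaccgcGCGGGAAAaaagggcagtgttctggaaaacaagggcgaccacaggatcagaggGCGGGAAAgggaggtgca

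Pyrimidine synthesis was represented by 4 genes, of which 4 rose in Pax5+/- and 3 in WT. Umps, which closes the route by making uridine monophosphate, measured 8.12, 7.89 and 7.38 on the preleukemic WT arrays and 9.68, 9.39, 9.90 and 9.04 on the leukemic ones. In Pax5+/- its lowest, median and highest log2 signals were 7.66, 7.73 and 8.02 before leukemia and 8.81, 9.77 and 10.27 in leukemia. The stages did not overlap in either genotype. Umps was 3.57-fold higher in leukemic Pax5+/- samples (log2 difference 1.84 ± 0.18 (SE), limma adjusted p = 1.92e-08) and 3.27-fold higher in WT (1.71 ± 0.28, adjusted p = 6.64e-05).

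Cad carries the first 3 activities of the route on a single protein. Its preleukemic WT values were 7.98, 7.31 and 7.66 and its leukemic ones 8.87, 9.02, 9.16 and 9.07. In Pax5+/- the lowest, median and highest were 6.97, 7.32 and 7.44 against 8.40, 8.75 and 9.26, again without overlap. The rise was 2.97-fold in Pax5+/- (1.57 ± 0.11, limma adjusted p = 1.45e-10) and 2.61-fold in WT (1.38 ± 0.17, adjusted p = 2.93e-06).

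Ctps, which converts uridine to cytidine triphosphate, also rose. It read 7.35, 6.54 and 6.27 on preleukemic WT arrays and 7.60, 7.64, 8.19 and 7.71 on leukemic ones. In Pax5+/- its values of 6.62, 7.01 and 7.21 before leukemia met those of 7.16, 7.72 and 8.18 in leukemia, so that here the stages overlapped. The log2 differences were 0.73 ± 0.14 in Pax5+/- (limma adjusted p = 0.00015) and 1.07 ± 0.22 in WT (adjusted p = 0.000664). Dhodh, the mitochondrial step between Cad and Umps, differed by 0.21 ± 0.09 in Pax5+/- (adjusted p = 0.0421) and by 0.31 ± 0.14 in WT (adjusted p = 0.0798). The Dhodh call was lost on leaving out any 1 of 10 of the 17 Pax5+/- arrays, with adjusted p-values up to 0.0776.

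Deoxynucleotide and thymidylate supply held both the largest rise and the only fall. Of its 7 genes, 5 rose and 1 fell in each genotype, with medians of 0.77 in Pax5+/- and 1.23 in WT. Dctd, which deaminates deoxycytidylate to give the substrate of thymidylate synthase, measured 7.83, 6.34 and 6.30 on preleukemic WT arrays and 10.14, 10.19, 10.39 and 9.99 on leukemic ones. In Pax5+/- its lowest, median and highest were 6.05, 6.17 and 6.48 before leukemia and 8.74, 9.88 and 10.19 in leukemia. All leukemic arrays were high, and the lowest of them stood above the highest preleukemic array. Dctd was 11.9-fold higher in leukemic Pax5+/- samples (3.58 ± 0.19, limma adjusted p = 8.2e-13) and 10.2-fold higher in WT (3.35 ± 0.29, adjusted p = 1.87e-08). Without WT preleukemic array 1 the WT log2 difference was 3.86.

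Tyms, the synthase that methylates deoxyuridylate and the target of fluorouracil, read 9.11, 7.31 and 7.54 on preleukemic WT arrays and 10.00, 9.62, 9.87 and 9.83 on leukemic ones. In Pax5+/- the lowest, median and highest were 7.59, 8.22 and 8.45 against 8.76, 9.85 and 10.13. No stage overlapped, although array 1 of the preleukemic WT group came closest to the leukemic values. The log2 difference was 1.66 ± 0.21 in Pax5+/- (limma adjusted p = 6.39e-07) and 1.84 ± 0.32 in WT (adjusted p = 0.000126), or 2.40 in WT without that array.

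Dck, which phosphorylates deoxycytidine and also activates the drug cytarabine, went the other way. Its preleukemic WT values of 9.59, 9.96 and 9.67 lay above the leukemic ones of 8.69, 8.13, 8.38 and 8.37. In Pax5+/- the lowest, median and highest of 9.71, 10.09 and 10.34 before leukemia likewise lay above 8.00, 8.34 and 8.60 in leukemia. The signal was 3.25-fold lower in leukemic Pax5+/- samples (-1.70 ± 0.11, limma adjusted p = 1.39e-11) and 2.55-fold lower in WT (-1.35 ± 0.16, adjusted p = 1.88e-06). By contrast Tk1, the thymidine kinase of dividing cells, rose by 1.17 ± 0.14 in Pax5+/- and 1.34 ± 0.22 in WT, and its second probe set gave 1.37 and 1.25.

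Of the subunits of ribonucleotide reductase, Rrm1 passed the test and Rrm2 did not, and the difference between them was not tested. Rrm1, the large subunit, rose by 0.77 ± 0.17 in Pax5+/- (limma adjusted p = 0.000419) and 1.23 ± 0.26 in WT (adjusted p = 0.000751), or 1.71 in WT without preleukemic array 1. Rrm2, the small subunit of dividing cells, measured 10.52, 9.15 and 9.47 on preleukemic WT arrays and 10.17, 10.13, 10.18 and 9.89 on leukemic ones. Its Pax5+/- values were 9.25, 9.77 and 10.29 before leukemia and 8.23, 9.68 and 9.95 in leukemia. The stages overlapped in both genotypes, and neither difference passed the test (-0.28 ± 0.21, adjusted p = 0.251 in Pax5+/-, and 0.38 ± 0.33, adjusted p = 0.371 in WT). The 95% interval reached from -0.72 to 0.16 in Pax5+/- and from -0.30 to 1.06 in WT. Array 1 held the highest preleukemic WT value of Rrm2, and without it the WT difference was 0.78 (adjusted p = 0.0602). Dut, which clears deoxyuridine triphosphate, rose by 0.54 ± 0.17 in Pax5+/- (adjusted p = 0.0104) and 1.22 ± 0.27 in WT (adjusted p = 0.00113).

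**Figure D2:**
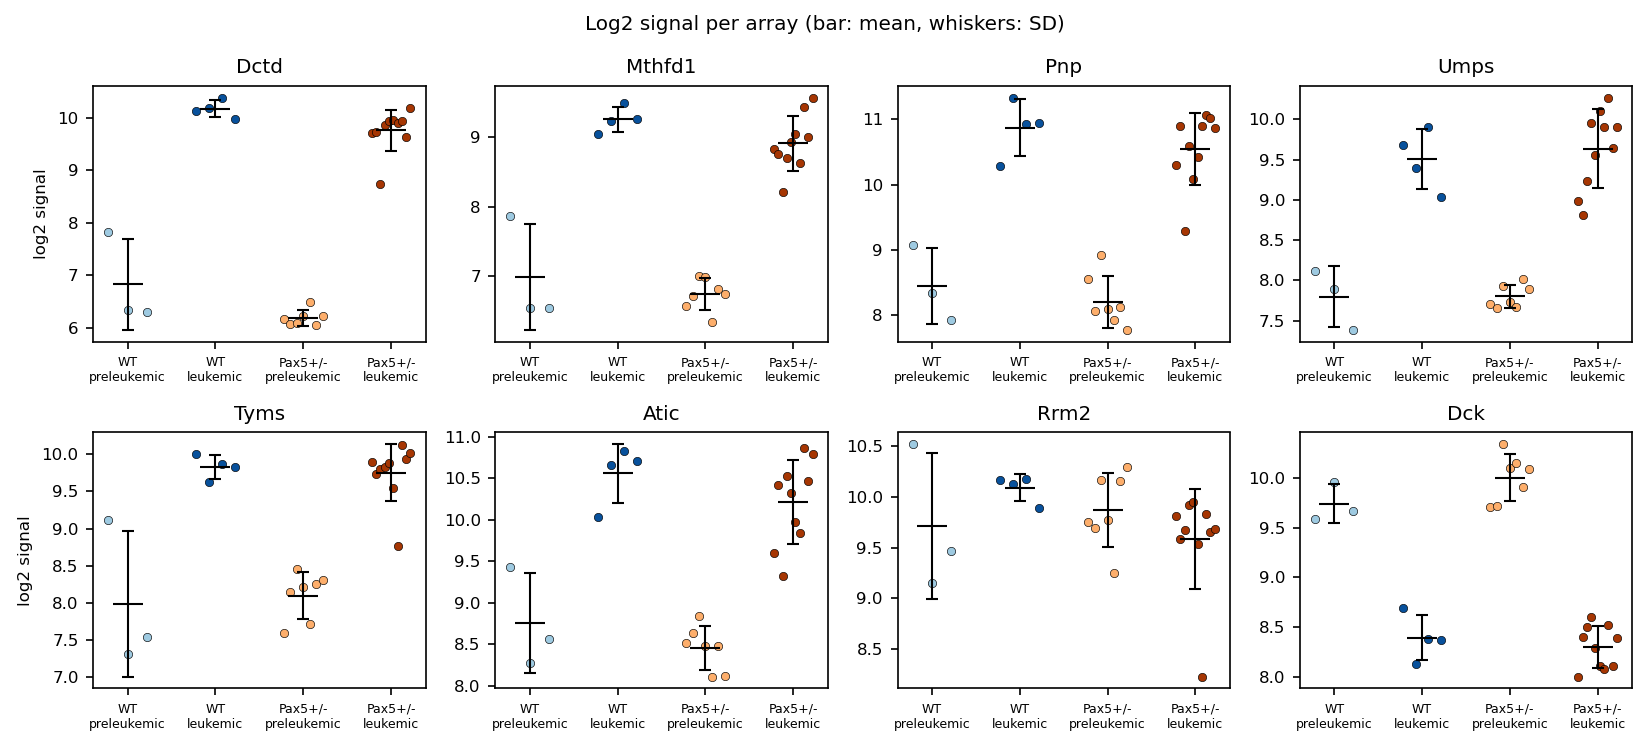
Log2 signal on each array for 8 of the genes by group, with group means (bars) and SDs (whiskers); each panel has its own axis. Leukemic arrays of Dctd, Mthfd1, Pnp, Umps, Tyms and Atic lie above the preleukemic arrays of the same genotype, those of Dck lie below, and those of Rrm2 overlap.

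Purine synthesis was represented by 11 genes, of which 9 rose in Pax5+/- and 8 in WT, and none fell. The median difference was 0.96 in Pax5+/- and 0.95 in WT. Atic, which performs the last steps to inosine monophosphate, read 9.43, 8.28 and 8.56 on preleukemic WT arrays and 10.04, 10.66, 10.83 and 10.71 on leukemic ones. The lowest, median and highest in Pax5+/- were 8.11, 8.48 and 8.84 against 9.33, 10.38 and 10.87. The stages did not overlap. Atic rose 3.39-fold in Pax5+/- (1.76 ± 0.21, limma adjusted p = 2.34e-07) and 3.49-fold in WT (1.80 ± 0.32, adjusted p = 0.000143).

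Ppat, the committed and feedback-regulated first step of the purine ring, measured 7.90, 7.39 and 7.10 on preleukemic WT arrays and 8.87, 9.10, 9.50 and 8.93 on leukemic ones. The Pax5+/- values were 7.20, 7.45 and 7.87 before leukemia and 7.85, 8.90 and 9.67 in leukemia. The WT stages were apart, and the Pax5+/- stages touched at a single leukemic array. The log2 differences were 1.44 ± 0.19 (limma adjusted p = 1.39e-06) and 1.64 ± 0.30 (adjusted p = 0.000182).

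Gart joins 3 of the middle activities in a single protein. It read 9.02, 8.13 and 8.36 on preleukemic WT arrays and 9.88, 10.12, 10.25 and 10.17 on leukemic ones, and in Pax5+/- 8.21, 8.47 and 8.55 against 9.28, 9.84 and 10.30. Leukemic arrays were high without exception. It rose by 1.47 ± 0.12 in Pax5+/- (limma adjusted p = 1.91e-09) and 1.60 ± 0.19 in WT (adjusted p = 1.75e-06).

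The enzymes between these steps moved with them. Pfas, Paics and Adsl, which carry the ring from its middle to its penultimate stages, rose by 1.03, 0.96 and 1.25 in Pax5+/- and by 0.97, 0.95 and 1.21 in WT. Gmps, which makes guanosine monophosphate, rose by 0.55 ± 0.11 in Pax5+/- (limma adjusted p = 0.000191) and 0.55 ± 0.17 in WT (adjusted p = 0.0141). The WT call of Gmps was lost without leukemic array 3 (adjusted p = 0.0577), without preleukemic array 3 (adjusted p = 0.0852), or when only the WT groups were fitted (adjusted p = 0.102). Impdh1, of the guanine branch, rose by 0.90 ± 0.16 in Pax5+/- (adjusted p = 4.47e-05). In WT its difference of 0.55 ± 0.24 missed the threshold (adjusted p = 0.0756), and it passed without WT leukemic array 2 (0.70, adjusted p = 0.0352) or Pax5+/- leukemic array 1 (adjusted p = 0.0374). Adss, which opens the adenine branch, differed by 0.11 ± 0.06 in Pax5+/- (adjusted p = 0.128) and by 0.06 ± 0.10 in WT (adjusted p = 0.63). The intervals of Adss, -0.02 to 0.24 and -0.14 to 0.26, exclude a rise of the size seen for Gart, and its sign turned when arrays were centred on the genes tested. In Pax5+/- Adss passed as a small rise with arrays centred on their medians (0.18, limma adjusted p = 0.0305). It also passed there without preleukemic array 7 (0.15, adjusted p = 0.0303).

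Folate one-carbon genes rose in 5 of 6 cases in each genotype, with medians of 1.50 in Pax5+/- and 1.43 in WT. Mthfd1, the cytosolic enzyme that interconverts the folate forms used for purines and thymidylate, measured 7.87, 6.55 and 6.55 on preleukemic WT arrays and 9.04, 9.22, 9.48 and 9.26 on leukemic ones. In Pax5+/- its lowest, median and highest were 6.35, 6.75 and 7.01 against 8.21, 8.87 and 9.56. Every leukemic array was above every preleukemic array of either genotype. Mthfd1 rose 4.47-fold in Pax5+/- (2.16 ± 0.18, limma adjusted p = 1.51e-09) and 4.79-fold in WT (2.26 ± 0.28, adjusted p = 2.44e-06). Without WT preleukemic array 1 the WT log2 difference was 2.70.

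Shmt1 and Shmt2 release a one-carbon unit from serine in the cytosol and in mitochondria, respectively. Shmt2 read 8.94, 8.01 and 8.18 on preleukemic WT arrays and 10.05, 10.08, 10.29 and 10.32 on leukemic ones, and in Pax5+/- 7.97, 8.30 and 8.42 against 9.77, 10.02 and 10.42. Shmt1 read 7.47, 6.84 and 6.82 against 8.79, 8.56, 9.02 and 8.59 in WT, and 6.59, 6.87 and 6.97 against 7.85, 8.38 and 9.01 in Pax5+/-. The stages of both genes were apart in both genotypes. Shmt2 rose by 1.79 ± 0.11 in Pax5+/- (limma adjusted p = 9.01e-12) and 1.81 ± 0.17 in WT (adjusted p = 5.44e-08), and Shmt1 by 1.66 ± 0.13 (adjusted p = 5.55e-10) and 1.69 ± 0.20 (adjusted p = 1.52e-06).

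Of the mitochondrial steps after Shmt2, Mthfd1l passed the test and Mthfd2 did not, and the difference between them was not tested. Mthfd1l, which releases formate, rose by 1.22 ± 0.15 in Pax5+/- and 1.13 ± 0.23 in WT. Mthfd2, the step before it, read 8.13, 7.14 and 7.33 on preleukemic WT arrays and 8.22, 8.57, 8.34 and 7.77 on leukemic ones. In Pax5+/- its values were 7.28, 7.58 and 7.91 before leukemia and 7.11, 7.97 and 9.22 in leukemia, where its range was the wider. The stages overlapped, and the differences of 0.48 ± 0.23 (limma adjusted p = 0.0692) and 0.69 ± 0.35 (adjusted p = 0.119) missed the threshold. Mthfd2 passed in Pax5+/- without leukemic array 3 (adjusted p = 0.0469) or 7 (adjusted p = 0.0187), and in WT without preleukemic array 1 (0.99, adjusted p = 0.0385). Slc19a1, the reduced folate carrier through which methotrexate enters cells, rose by 1.34 ± 0.12 in Pax5+/- and 1.16 ± 0.18 in WT. Its probe sets disagreed, since the one with the lower mean over all arrays, not used for the test, gave 0.29 in Pax5+/- and 0.02 in WT.

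All 3 genes of serine synthesis rose in each genotype. Phgdh, the entry step, measured 8.37, 7.70 and 7.89 on preleukemic WT arrays and 8.88, 9.12, 8.90 and 9.06 on leukemic ones, and in Pax5+/- 7.65, 8.10 and 8.36 against 8.53, 9.05 and 9.44. Its stages did not overlap, and it rose by 0.95 ± 0.13 in Pax5+/- (limma adjusted p = 1.78e-06) and 1.00 ± 0.20 in WT (adjusted p = 0.000442).

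Psat1, the aminotransferase of the route, read 8.80, 8.24 and 8.17 against 9.07, 9.05, 9.18 and 8.97 in WT, and 7.91, 8.16 and 8.36 against 8.09, 9.03 and 9.38 in Pax5+/-. A single leukemic Pax5+/- array fell within the preleukemic range. The differences were 0.85 ± 0.14 (limma adjusted p = 2e-05) and 0.66 ± 0.21 (adjusted p = 0.0178), and the WT call was lost without preleukemic array 2 (adjusted p = 0.0826) or 3 (adjusted p = 0.101). Psph, the closing phosphatase, read 7.26, 7.23 and 7.28 against 7.62, 7.56, 7.63 and 7.56 in WT, and 7.12, 7.22 and 7.31 against 7.14, 7.45 and 7.58 in Pax5+/-. These are small differences between arrays that lie close together, 0.20 ± 0.05 in Pax5+/- (adjusted p = 0.00152) and 0.33 ± 0.08 in WT (adjusted p = 0.00169). Centring arrays on the genes tested ended both Psph calls (0.002, adjusted p = 0.974, and 0.21, adjusted p = 0.0513).

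Salvage genes and nucleoside diphosphate kinases rose in 6 of 6 cases in each genotype, with medians of 1.15 and 1.17. Pnp, which splits purine nucleosides into base and sugar, measured 9.07, 8.34 and 7.92 on preleukemic WT arrays and 10.28, 11.33, 10.93 and 10.94 on leukemic ones. Across Pax5+/- arrays the lowest, median and highest were 7.77, 8.10 and 8.92 against 9.29, 10.72 and 11.06. The stages were apart in both genotypes. Pnp rose 5.04-fold in Pax5+/- (2.33 ± 0.23, limma adjusted p = 2.11e-08) and 5.38-fold in WT (2.43 ± 0.36, adjusted p = 2.1e-05). A probe set shared by Pnp and its near-copy Pnp2, not used for the test, differed by 2.30 and 2.22, and the array signals of the copies may not be fully separated.

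Nme1 and Nme2 transfer phosphate between nucleoside diphosphates and lie next to each other on chromosome 11. Nme1 read 8.23, 7.48 and 7.56 against 9.01, 9.42, 9.41 and 9.30 in WT, and 7.43, 7.95 and 8.27 against 8.53, 9.18 and 9.61 in Pax5+/-, without overlap. It rose by 1.25 ± 0.16 in Pax5+/- (limma adjusted p = 8.81e-07) and 1.53 ± 0.25 in WT (adjusted p = 5.81e-05). Nme2 rose by 1.11 ± 0.10 and 1.05 ± 0.16.

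Hprt, which returns hypoxanthine and guanine to nucleotides and activates mercaptopurine, read 9.63, 8.69 and 8.48 on preleukemic WT arrays and 10.05, 10.15, 10.20 and 10.37 on leukemic ones. In Pax5+/- the lowest, median and highest were 8.92, 9.01 and 9.29 against 9.68, 9.94 and 10.35, and again the stages were apart. It rose by 0.85 ± 0.13 in Pax5+/- (limma adjusted p = 6.99e-06) and 1.26 ± 0.20 in WT (adjusted p = 3.75e-05), or 1.61 in WT without preleukemic array 1. Aprt, its counterpart for adenine, rose by 0.94 and 1.09, and Ada, which deaminates adenosine, by 1.18 and 0.92.

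Isozymes and partner subunits did not always move alike. Rrm2b, the alternative small subunit of ribonucleotide reductase that p53 induces, read 8.40, 9.22 and 9.35 on preleukemic WT arrays and 6.73, 6.66, 6.71 and 6.66 on leukemic ones, and in Pax5+/- 9.14, 9.35 and 9.80 against 6.36, 6.63 and 6.87. Leukemic arrays were low throughout, and Rrm2b was 6.78-fold lower in Pax5+/- (-2.76 ± 0.12, limma adjusted p = 3.4e-14) and 4.92-fold lower in WT (-2.30 ± 0.18, adjusted p = 5.06e-09), while Rrm2 did not pass the test. Ctps2, the second cytidine triphosphate synthase, fell by 0.46 ± 0.09 in Pax5+/- (adjusted p = 0.000215) and by 0.44 ± 0.14 in WT (adjusted p = 0.0192), whereas Ctps rose. The WT call of Ctps2 was lost without leukemic array 4 or preleukemic array 2 or 3, with adjusted p-values up to 0.142.

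Prps1 and Prps2 make the activated ribose phosphate on which purines are built and to which the pyrimidine base is joined. Both genes are X-linked. Prps1 rose by 0.46 ± 0.11 in Pax5+/- (limma adjusted p = 0.000971) and 0.69 ± 0.17 in WT (adjusted p = 0.00243). Prps2 read 10.19, 10.04 and 10.13 against 10.26, 10.52, 10.78 and 10.74 in WT, and 10.26, 10.40 and 10.54 against 9.90, 10.32 and 10.90 in Pax5+/-. The WT stages were apart and the Pax5+/- stages overlapped on both sides. The difference of 0.46 ± 0.18 in WT lay at the threshold (adjusted p = 0.0548), and that of -0.05 ± 0.12 in Pax5+/- did not pass (adjusted p = 0.749). Leaving out WT leukemic array 1 brought WT past it (0.56, adjusted p = 0.0264), as did leaving out Pax5+/- leukemic array 1, 2, 8 or 10. Fitting only the WT groups, or a stricter filter, also brought WT past it (limma adjusted p = 0.0398 and 0.048). So did centring on array medians, repeated quantile normalization or a replicate block (adjusted p = 0.0344, 0.0407 and 0.0408). Adssl1, the second form of Adss, did not pass in either genotype (-0.44 ± 0.29, adjusted p = 0.186 in Pax5+/-, and 0.59 ± 0.45, adjusted p = 0.302 in WT, or 1.07, adjusted p = 0.0681, without WT preleukemic array 1). In Pax5+/- it passed without preleukemic array 5 (-0.75, adjusted p = 0.00492).

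**Figure D3:**
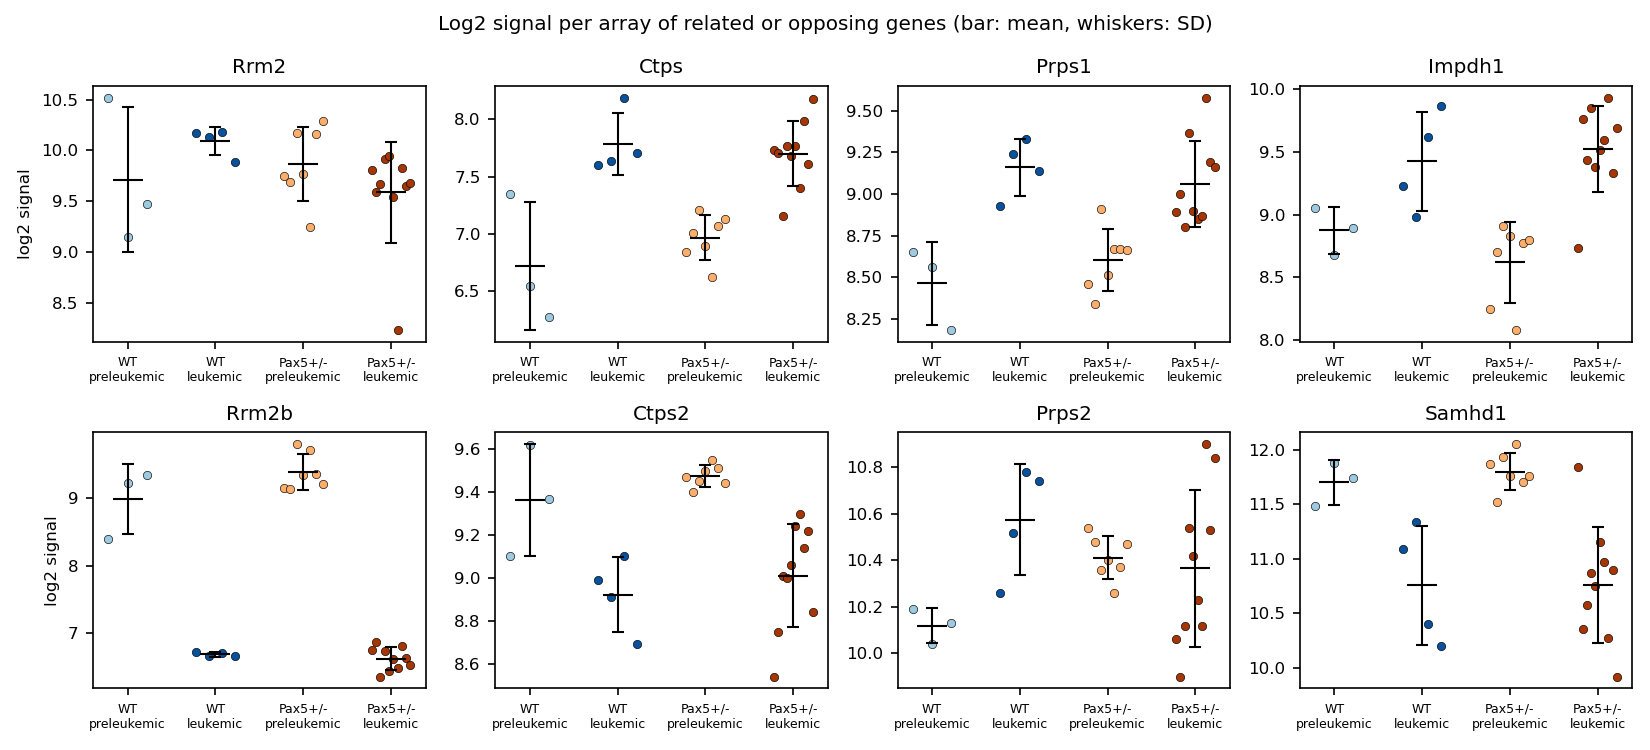
Log2 signal on each array for related or opposing genes by group, with group means (bars) and SDs (whiskers); each panel has its own axis. Rrm2b is low on every leukemic array while Rrm2 overlaps between stages, Ctps is higher and Ctps2 lower on leukemic arrays, and Prps2 spans 9.90 to 10.90 on leukemic Pax5+/- arrays.

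The genotypes were compared within each stage, to ask whether losing part of Pax5 activity changed these genes. None of the 37 passed in preleukemic samples, in leukemic samples or in the difference of the stage differences by limma, where 0.786%, 0.16% and 0.185% of all genes tested did. Unadjusted p-values under 0.05 were found for 3, 3 and 2 genes, against 9.22%, 7.6% and 8.47% of all genes. The lowest adjusted p-values were 0.335, 0.357 and 0.533. With a replicate block, unadjusted limma p-values under 0.05 were found for 2, 8 and 2 genes, against 9.13%, 9.84% and 9.55% of all genes. A sex term from Y-linked genes gave 2, 7 and 3 genes, against 10.2%, 8.47% and 10%. No setting or left-out array that was tried gave a call, and the lowest adjusted p, 0.0599, was that of preleukemic Rrm1 without WT preleukemic array 1. That array moved these comparisons. Preleukemic Rrm1 was 0.26 higher in Pax5+/- with it and 0.74 ± 0.19 without it, and the median of the 37 preleukemic differences was -0.01 with it and 0.166 without it. When it was left out, unadjusted limma p-values under 0.05 were found for 4, 6 and 8 genes, against 11.1%, 8.23% and 11% of all genes. The median difference of the stage differences was -0.09 with it and -0.278 without it. Lowest there without it were Hprt (-0.76 ± 0.19, limma p = 0.000523, adjusted p = 0.0878) and Rrm1 (-0.93 ± 0.23, p = 0.000604, adjusted p = 0.0917).

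For most genes the genotype difference was smaller in size than the stage difference of the same gene, as estimates set side by side with no test. Against the Pax5+/- stage difference this held for 36 of 37 genes before leukemia, Prps2 being the exception, and for 35 of 37 in leukemia, Prps2 and Rrm2 being the exceptions. For Psph and Dut in leukemia the sizes were close. Preleukemic Cad was lower in Pax5+/- by -0.42 ± 0.16 (limma p = 0.0131, adjusted p = 0.335), or by -0.26 ± 0.17 without WT preleukemic array 1 (p = 0.15, adjusted p = 0.648), and leukemic Psph by -0.17 ± 0.06 (p = 0.00814, adjusted p = 0.357). Leukemic Dut differed by -0.52 ± 0.21 (p = 0.0192, adjusted p = 0.491), and its stage difference was lower in Pax5+/- than in WT by -0.68 ± 0.32 (p = 0.0438, adjusted p = 0.568). Without WT preleukemic array 1 that difference of Dut was -1.02 ± 0.31 (limma p = 0.0031, adjusted p = 0.18). Among preleukemic arrays only Prps2 had groups that did not overlap, Pax5+/- lying higher, where 1.94% of all genes did so. A missed threshold does not show that the genotypes are alike. With all 24 arrays, the 95% interval lay within 1 log2 unit of 0 for 36 of 37 genes in each stage. It did so for 33 of 37 in the difference of the stage differences, so that a 2-fold difference between genotypes lies outside most of these intervals. Intervals were not counted without WT preleukemic array 1. The differences of the stage differences then ran from -1.07 (Rrm2) to 0.26, and the preleukemic differences from -0.26 to 0.74, so these counts may rest on that array. In leukemia 31 of 37 estimates were below 0, with a median of -0.15, against -0.0006 over all genes. The share of all genes below 0 was not counted. The 37 genes varied together across arrays, so their estimates are not separate observations. The 3 comparisons share groups, and their values are therefore not independent.

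Arrays of a group differed together across these genes. The mean log2 signal of the 37 genes was 8.70 on WT preleukemic array 1 against 8.02 and 8.07 on the other 2. It was 9.26 to 9.57 on leukemic WT, 8.06 to 8.39 on preleukemic Pax5+/- and 8.94 to 9.63 on leukemic Pax5+/- arrays. WT preleukemic array 1 was the highest of its group for 33 of 37 genes, and below every leukemic WT array for 29 of the 30 genes that rose in WT. It was below every leukemic Pax5+/- array for 20 of those 30. Within leukemic Pax5+/- samples, arrays 8 and 10 held the highest value for 19 and 11 of 37 genes, and arrays 3 and 7 the lowest for 15 and 12. The median SD of the 37 genes was 0.371 in preleukemic WT, 0.183 in leukemic WT, 0.184 in preleukemic Pax5+/- and 0.289 in leukemic Pax5+/- samples. These exceed the medians over all genes in the same groups, which were 0.151, 0.133, 0.123 and 0.17. The genes tested include some near the dim level, which none of the 37 touched, so the sets differ in signal level. The preleukemic WT values include array 1 and were not computed without it.

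**Figure D4:**
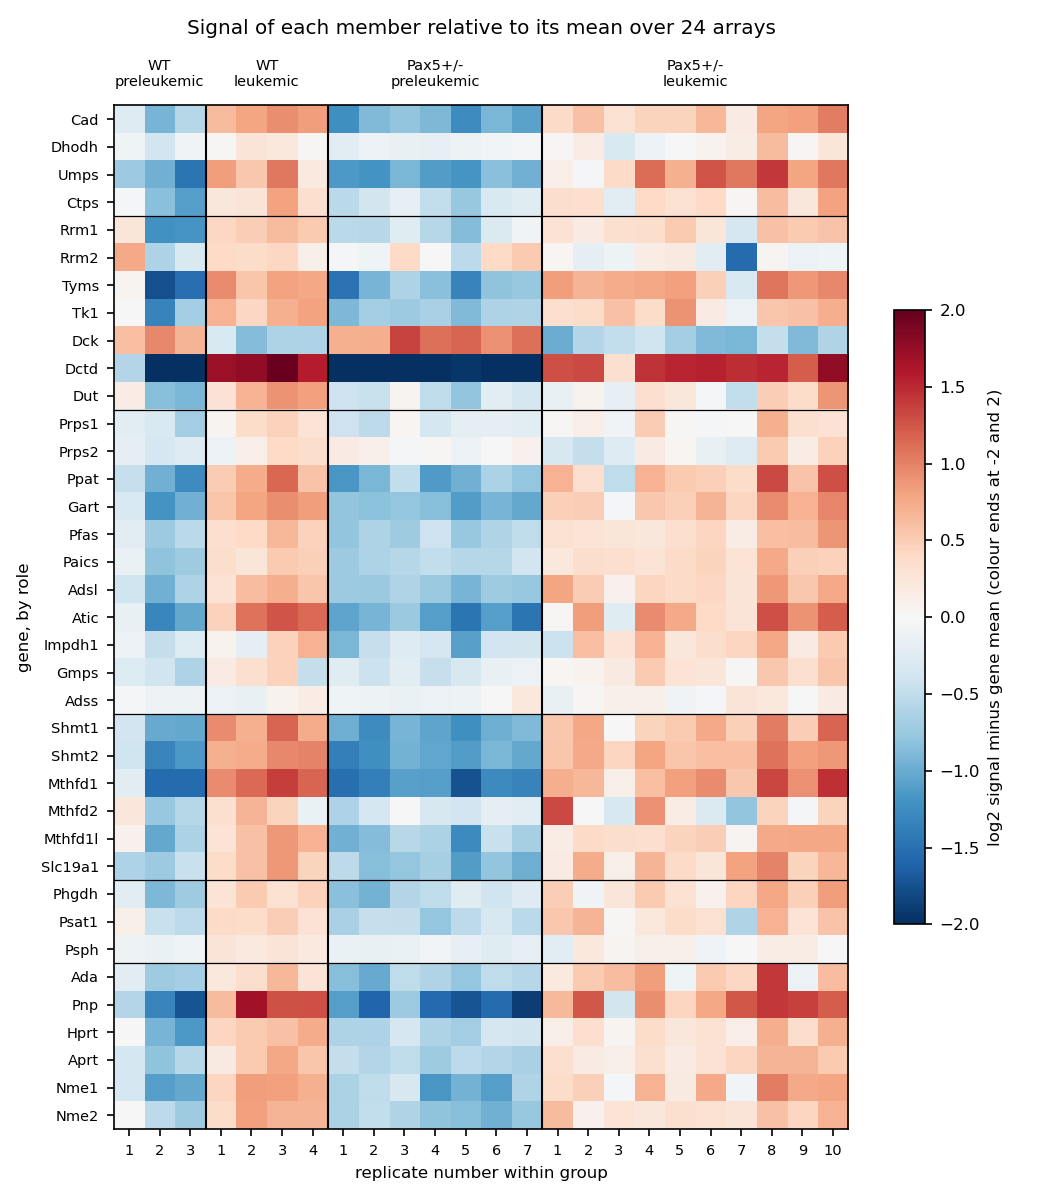
Log2 signal of 37 genes (rows, by role) on 24 arrays (columns, by group) minus each gene's mean over all arrays, with the colour scale ending at -2 and 2. Leukemic columns are red and preleukemic columns blue for most rows, the Dck row is inverted, and WT preleukemic array 1 is paler than the other 2 arrays of its group.

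On a few arrays the marker lists and the 37 genes parted. Leukemic Pax5+/- arrays 2 and 7 had granulocyte means of 6.70 and 6.36, inside the preleukemic Pax5+/- range of 6.34 to 7.04. Their means over the 37 genes were 9.20 and 8.99, above the highest preleukemic Pax5+/- value of 8.39. WT preleukemic array 1 had a mitosis mean of 10.24, inside the leukemic WT range of 10.07 to 10.40, and its mean of 8.70 over the 37 genes lay below the lowest leukemic value of either genotype, 8.94. Both means of that array were still the highest of any preleukemic array. Its mean over the 7 genes of deoxynucleotide and thymidylate supply was 9.45. That lay inside the leukemic Pax5+/- range of 8.96 to 9.88 and below the leukemic WT range of 9.77 to 9.97. Leukemic Pax5+/- array 7 had the lowest mitosis mean of its group, 9.51, and only array 3 lay below it over the 37 genes. Platelet and monocyte means separated the stages without overlap in both genotypes, at 6.21 to 6.55 against 8.41 to 11.23 for platelet genes and 6.07 to 6.75 against 7.15 to 9.85 for monocyte genes. The part of these cells, or of cell division, in the rise was not tested.

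**Figure D5:**
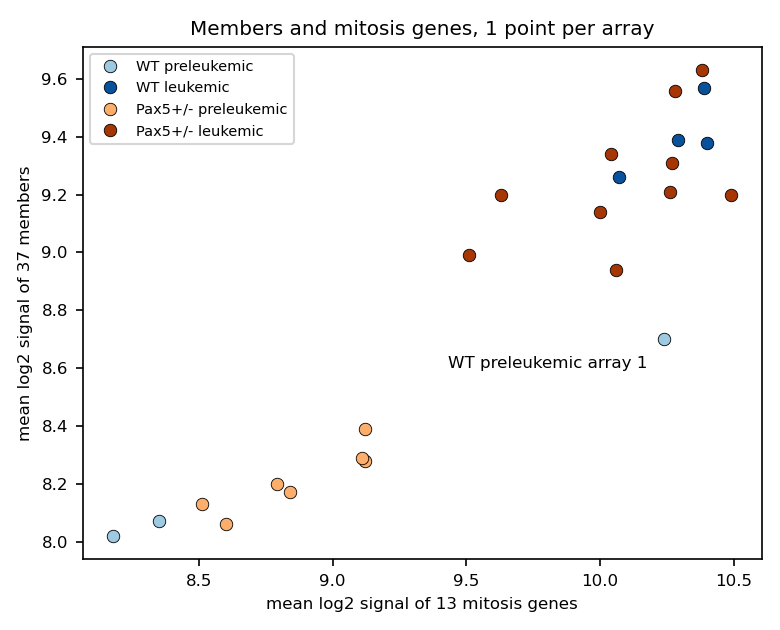
Mean log2 signal of the 37 nucleotide and one-carbon genes against that of 13 mitosis genes, 1 point per array, coloured by group. Leukemic arrays lie at 8.94 or above on the vertical axis, and WT preleukemic array 1 lies at 8.70 with a mitosis mean of 10.24.

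Other genes of these pathways were more evenly divided. Of 71 listed, some transcription factors among them, 60 were on the platform and 57 were tested. In Pax5+/- 21 rose and 18 fell, against 27.8% and 35.1% of all genes, and in WT 20 rose and 11 fell, against 18.7% and 20.4%. Their median differences were 0.04 and 0.13. In both genotypes 17 rose and 10 fell, where 16.9% and 17.9% of all genes did so.

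After Myc, the largest rises were in Xdh, Uck2 and Nme4 in Pax5+/- and in Uck2, Adk and Nme4 in WT. Uck2, which phosphorylates uridine and cytidine, rose by 2.09 ± 0.18 in Pax5+/- (limma adjusted p = 1.96e-09) and 1.90 ± 0.27 in WT (adjusted p = 1.55e-05). Adk, the adenosine kinase, rose by 1.62 ± 0.17 and 1.77 ± 0.26 (2.16 in WT without preleukemic array 1), and Nme4, a mitochondrial nucleoside diphosphate kinase, by 1.90 ± 0.14 and 1.69 ± 0.22. Not all kinases on the list rose. In values picked out after they were seen, Tk2, the mitochondrial thymidine kinase, fell by 0.68 ± 0.13 and by 0.92 ± 0.20, and Uck1, the partner of Uck2, fell by 0.14 ± 0.05 in Pax5+/- (adjusted p = 0.0235). Xdh, which oxidises hypoxanthine towards uric acid, rose by 2.09 ± 0.47 in Pax5+/- (adjusted p = 0.00063). In WT it differed by 0.73 ± 0.73 (adjusted p = 0.439), or by 1.55 without preleukemic array 1 (adjusted p = 0.1).

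The largest falls beside Rrm2b were in a nucleoside transporter, a deoxynucleotide triphosphatase and a transcription factor. Slc28a2, a concentrative purine nucleoside transporter, fell by 1.05 ± 0.20 in Pax5+/- (limma adjusted p = 0.000119) and by 1.65 ± 0.31 in WT (adjusted p = 0.000271). Samhd1, which degrades deoxynucleotide triphosphates and inactivates cytarabine triphosphate, fell by 1.04 ± 0.20 in Pax5+/- (adjusted p = 0.000144) and by 0.94 ± 0.31 in WT (adjusted p = 0.0204). The WT call of Samhd1 was lost without leukemic array 3 or 4 or preleukemic array 2 or 3, with adjusted p-values of 0.0622 to 0.0819. Of the 6 transcription factors on the list, Myc and E2f3 rose and E2f2 and Atf4 fell in both genotypes. Myc, a known regulator of many genes of nucleotide synthesis, rose by 3.58 ± 0.33 in Pax5+/- and 2.88 ± 0.51 in WT (3.41 without preleukemic array 1), and E2f2 fell by 2.24 ± 0.13 and by 1.80 ± 0.21. The other factors were named after their values were seen. E2f3 rose by 1.00 ± 0.15 and 1.28 ± 0.24, and Atf4 fell by 0.63 ± 0.12 and by 0.64 ± 0.18. E2f1 differed by -0.06 ± 0.11 in Pax5+/- (limma adjusted p = 0.629) and rose by 0.54 ± 0.18 in WT (adjusted p = 0.0197). Mycn passed in neither genotype (0.19 ± 0.11, adjusted p = 0.135, and 0.13 ± 0.17, adjusted p = 0.554).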

How the data were processed

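The authors deposited log2 signals for 35556 probe sets. Per the submitters' processing notes, RMA and oligo produced them. RMA corrects background, equalises array distributions and summarises probes, so that folds of dim probe sets come out too small. Their versions, and any filter or batch handling, were not given in the sources used here. Signals ran from 3.48 to 14.2, with array medians of 6.104 to 6.296. The number of arrays, not a read depth, limits precision.

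The platform table gave 1 symbol to 21789 probe sets and several to 1621, which named no gene. Tests covered the 15647 genes that reached an array's 30th percentile (5.18 to 5.35) on 3 or more arrays. A model of 4 group means over the 24 arrays was fitted in R 4.3.3 by limma 3.58.1, using lmFit, contrasts.fit and eBayes with 20 residual and 2.29 prior degrees of freedom, and p-values are two-sided with Benjamini-Hochberg adjustment over all genes tested. The fit was tested on simulated data.

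The 38 genes, the list of 71 other pathway genes and the marker lists were chosen with earlier results of these data known. Any of the 38 may be named. In each role, up to 3 with the largest stage difference have their arrays printed, as have genes set beside an isozyme, and Mthfd2 was added after its values were seen. Of the other pathway genes the 4 highest and 4 lowest called differences per stage comparison are named, beside isozymes. The samples are called biological replicates in the labels, and the design text counts mice. Replicate numbers were checked for pairing over 24 same-numbered pairs. Deviations correlated at -0.363 to 0.318, over 0.1 in 4 pairs. Differently numbered pairs were not set beside them, so the check cannot settle whether a number marks a pairing or a batch. Samples were treated as unpaired in the main fit. No 2 arrays were duplicates (highest correlation 0.994). Alternatives covered variance moderation, samples fitted, array weights, filters, scaling, probe set choice, a replicate block, a sex term from Y-linked genes and each array left out. Centring on the genes tested, and marker counts and genotype differences without WT preleukemic array 1, were added after seeing the data.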

Additional observations from a re-analysis of the deposited data

Results flagged for a closer look

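Single arrays stood far from the rest of their group in 9 of 111 sets of values (37 genes in the 3 groups of 4 or more arrays), over 8 genes, where chance alone flags about 1 in 20. Leukemic Pax5+/- array 7 accounts for 4 of them as the lowest of its group, at 10.31 for Rrm1 (next value 10.80), 8.23 for Rrm2 (9.54), 8.76 for Tyms (9.54) and 8.09 for Psat1 (8.71). The first 3 of these genes supply deoxynucleotides, and the same array had the lowest mitosis mean of its group, 9.51. Leukemic Pax5+/- array 3 was lowest for Dctd at 8.74 (next 9.63), array 1 lowest for Impdh1 at 8.73 (9.33), and array 8 highest for Paics at 12.00 (11.72). Preleukemic Pax5+/- array 5 was highest for Dctd at 6.48 (next 6.22) and array 7 highest for Adss at 9.60 (9.39).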

How the results depend on the processing

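Of 74 stage differences of the 37 genes, 59 kept their direction and their side of the threshold under every alternative. Rises numbered 31 to 33 in Pax5+/- and 28 to 32 in WT over the arrays left out, and 29 to 34 and 29 to 32 under the other alternatives. With the replicate block 30 genes rose in Pax5+/- and 32 in WT, and the calls of Dhodh (0.12, adjusted p = 0.178) and Dut (0.35, adjusted p = 0.12) in Pax5+/- were lost. Scaling mattered most for small differences. Centring on the genes tested, chosen after seeing the data, gave 2 falls in Pax5+/- (Rrm2, -0.48, adjusted p = 0.0369), and falls of other pathway genes numbered 28 in Pax5+/- and 19 in WT. It turned Adss to -0.089 in Pax5+/- and -0.062 in WT, and ended the Pax5+/- calls of Dhodh (0.01) and Dut (0.34). Prps2 in Pax5+/- turned to 0.023 on centring by array medians, and ran from -0.105 to 0.0063 (without leukemic array 2) over the arrays left out. Falls of other pathway genes in WT ran from 7 (without preleukemic array 2) to 13 over the arrays left out. Over all genes 4354 rose and 5485 fell in Pax5+/- and 2924 and 3191 in WT, against 5066 and 3502, and 3379 and 2177, after centring on array medians, and 2827 and 8930, and 2214 and 5741, after centring on the genes tested. A sex term brought Impdh1 in WT past the threshold (0.80, adjusted p = 0.0316). Precision is limited in WT, where a difference of 0.55 passed for Gmps and did not for Impdh1.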
